A study of Sus scrofa with 36 samples.

Results

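Fibroblast growth factor (FGF) signalling was followed through 9 genes of the pig transcriptome, 5 that encode secreted ligands (FGF2, FGF4, FGF5, FGF8 and FGF17) and 4 that encode the receptor tyrosine kinases FGFR1, FGFR2, FGFR3 and FGFR4. The genes were taken by name, as a list, and all 9 stand among the 20683 genes of the deposited tables. Bulk RNA-seq was available for 36 libraries in 11 groups. Undifferentiated pig induced pluripotent stem cells (iPSCs) of clone 1 (3 libraries, labelled PiPS-EP1 minusPD c4 p11), clone 2 (4 libraries, PiPS-EP5 minusPD minusA83 c12 p10) and clone 3 (4 libraries, PiPS-EP5 minusPD minusA83 c18 p15) were set against pig fibroblasts (4 libraries). A further clone, clone 8, was sequenced after differentiation, with 3 libraries at each point, and before it, at day 0, after removal of the mouse embryonic fibroblast feeder (3 libraries). Its differentiated groups were primitive streak or mesendoderm at day 1 (medium E8A100ch3), presomitic mesoderm at day 2 (S1LDN), somite at day 3 (S2LDN), endothelial cells at day 6, cardiomyocytes at day 9 and neural progenitor cells at day 24. Each clone is a single line. Whether replicate libraries come from separate cultures is not stated in the labels, and the p-values therefore cover library-to-library spread alone, part of which may be technical.

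FGF ligands bind receptors at the cell surface together with heparan sulfate, and receptor activation is passed on through the adaptor FRS2 and the RAS-ERK kinase cascade. ERK activity induces its own brakes, among them the Sprouty and Spred proteins and the phosphatase DUSP6, and ETS factors such as ETV4 and ETV5. In pluripotent stem cells of the primed kind FGF2 is a standard component of the medium, and in the mouse and chick embryo FGF4, FGF8 and FGF17 are made in the primitive streak and the tail bud.

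In the RefSeq annotation of Sscrofa11.1 the ligand genes are FGF2 on chromosome 8 (101278877 to 101344084), FGF4 on chromosome 2 (3527113 to 3529011), FGF5 on chromosome 8 (137531806 to 137554512), FGF8 on chromosome 14 (112808215 to 112814225) and FGF17 on chromosome 14 (6310840 to 6315465). The receptor genes are FGFR1 on chromosome 15 (48053895 to 48106634), FGFR2 on chromosome 14 (131183095 to 131285001), FGFR3 on chromosome 8 (879151 to 894968) and FGFR4 on chromosome 2 (80841536 to 80853791). FGF2 overlaps its neighbour NUDT6, and its estimated count was fractional in 36 of 36 libraries. The counts of FGF2 and NUDT6 added up to a whole number, within 0.02, in 33 of the 36. FGF2 thus carries reads that were divided between both genes and its level is uncertain to that extent. FGFR2 had a fractional count in 4 libraries, in 3 of which its sum with FGFR3 was whole. FGF5 overlaps the non-coding LOC106508356 and FGFR4 the microRNA MIR7138, whose reads could not be told apart without strand.

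Levels are given as TPM, an abundance scaled for gene length and library size, with the SD over the libraries of a group. Total estimated counts per library were between 24314241 and 69879325 for clones 1 to 3, 6877298 and 36738189 for fibroblasts, and 1845333 and 9727315 for clone 8. The fibroblast libraries fell into 2 pairs. The chi-square per degree of freedom between the counts of 2 libraries was 6.39 for fibroblast replicates 3 and 4 and 26.0 for replicates 1 and 2. Across the pairs it was 112 to 142. The fibroblast SDs and tests below take all 4 as replicates, unless stated otherwise. A pair of clone 8 libraries went against their labels. Cardiomyocyte replicate 2 had 254 TPM of the neural gene PAX6 and 4.28 TPM of cardiac troponin TNNT2. Its 8 cardiac markers summed to 45.1 TPM, with 1 of the 8 at 0, against 12395 and 13614 TPM in the other cardiomyocyte libraries, and its 8 neural markers to 7061 TPM. Neural progenitor replicate 1 had 5155 TPM of TNNT2 and 0.19 TPM of PAX6. Its 8 neural markers summed to 104 TPM, against 7219 and 7852 TPM in the other neural progenitor libraries, and its 8 cardiac markers to 13712 TPM. The members' clone 8 results are therefore given with the libraries as labelled and, where a value or call moved, without these 2 contested libraries. Other pathway genes are given as labelled, unless stated otherwise, with the counts of feedback genes called without the 2 libraries beside them. The 6 somite markers summed to 24.1 to 32.4 TPM at day 3 and 19.9 to 24.1 TPM at day 2. The same sum was 10.8 to 16.5 TPM at day 0 and 32.55 to 40.55 TPM in endothelial libraries. Most of the sum at day 3 was FOXC2, at 10.98 to 16.5 TPM at day 3 and 1.31 to 2.45 TPM at day 2, and TCF15, at 10.8 to 12.96 TPM at day 3 and 14.04 to 16.8 TPM at day 2. TCF15 averaged 11.7 TPM at day 3 and 10.9 TPM at day 0, and FOXC2 14.1 and 0.647 TPM in the same order. PAX3 was at 0.54 to 1.3 TPM and MEOX1 at 1.60 to 2.98 TPM at day 3. The group is called day 3 below. In bulk RNA, fewer cells of a type and less RNA per cell cannot be told apart.

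Among the ligands, FGF2, the ligand added to most primed stem cell media, was detected in all 36 libraries. Its levels were 37.4, 34.8 and 40.0 TPM in clone 1, 30.3, 29.9, 34.1 and 21.97 TPM in clone 2, 29.7, 25.9, 26.7 and 46.6 TPM in clone 3, and 45.9, 40.8, 74.8 and 63.5 TPM in fibroblasts. In clone 8 the libraries had 20.7, 24.1 and 22.6 TPM at day 0, 15.8, 11.7 and 9.07 TPM at day 1, 12.3, 11.5 and 12.5 TPM at day 2, and 13.3, 8.55 and 8.83 TPM at day 3. The later groups had 14.3, 8.95 and 10.4 TPM (endothelial), 4.33, 9.41 and 4 TPM (cardiomyocyte) and 5.16, 6.15 and 12.1 TPM (neural progenitor). By mean, fibroblasts stood first (56.2 ± 15.7 TPM, n = 4), then clones 1, 3 and 2, then clone 8 at day 0, and cardiomyocytes last (5.91 ± 3.03 TPM, n = 3). Neighbours in this order overlapped, except fibroblasts against clone 1 and clone 8 day 0 against day 1.

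FGF4, an epiblast and primitive streak ligand, had 1 high group. It stood at 52.8, 27.1 and 21.98 TPM at day 1, each above every other library of the series. It was at 3.41, 3.78 and 1.74 TPM at day 0. Clone 1 had 2.78, 2.07 and 10.8 TPM, clone 2 3.36, 3.70, 5.20 and 3.86 TPM, and clone 3 7.35, 7.16, 3.71 and 6.43 TPM. FGF4 was at 0 counts in every fibroblast, day 2, day 3, cardiomyocyte and neural progenitor library, and in the endothelial group 1 of 3 libraries had it, at 1.68 TPM. Clones 3, 1 and 2 and clone 8 day 0, in that order of means, overlapped one another.

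FGF8, which patterns the gastrulating embryo, was also highest at day 1, at 13.7, 8.27 and 7.33 TPM, against 0.20, 0.20 and 0.40 TPM at day 0, where the values are 1, 1 and 2 counts. It stood at 1.89, 4.37 and 2.83 TPM at day 2, at 3.07, 5.33 and 4.14 TPM at day 3 and at 1.35, 2.43 and 4.83 TPM in endothelial libraries, and these groups overlapped one another. The cardiomyocyte libraries had 0.29, 1.45 and 0.39 TPM and the neural progenitor libraries 0.96, 0 and 0 TPM. In clone 1 it was 1.59, 0 and 0 TPM, in clone 2 0.31 to 0.89 TPM and in clone 3 0.36 to 0.72 TPM, and fibroblasts had none.

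FGF17, a close relative of FGF8, reached the highest level of the 5 ligands, at day 1, with 84.2, 64.9 and 60.01 TPM against 4.38, 1.92 and 2.90 TPM at day 0. The next groups were the undifferentiated clones, with 17.1, 14.8 and 10.4 TPM in clone 1, 21.3, 17.5, 17.9 and 18.6 TPM in clone 2 and 11.4, 13.8, 13.2 and 10.8 TPM in clone 3. Clone 2 lay above clones 1 and 3 with no overlap, and clones 1 and 3 overlapped. Day 2 (5.28, 4.87 and 6.63 TPM) and day 3 (2.62, 2.97 and 6.15 TPM) overlapped, while endothelial libraries had at most 0.96 TPM, cardiomyocyte and neural progenitor libraries at most 0.07 TPM, and fibroblasts 0 counts.

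FGF5, which in the mouse marks the formative and primed epiblast, went the other way. Libraries of clones 1 to 3 had at most 0.23 TPM, against 20.1, 14.8, 13.2 and 11.5 TPM in fibroblasts. Clone 8 at day 0 had 0.97, 0 and 0 TPM. The highest value outside fibroblasts was 3.57 TPM, in cardiomyocyte replicate 2, which rests on 9 counts. No clone 8 group averaged above 1.48 TPM, and neighbouring clone 8 groups in the order of means overlapped.

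**Figure D1:**
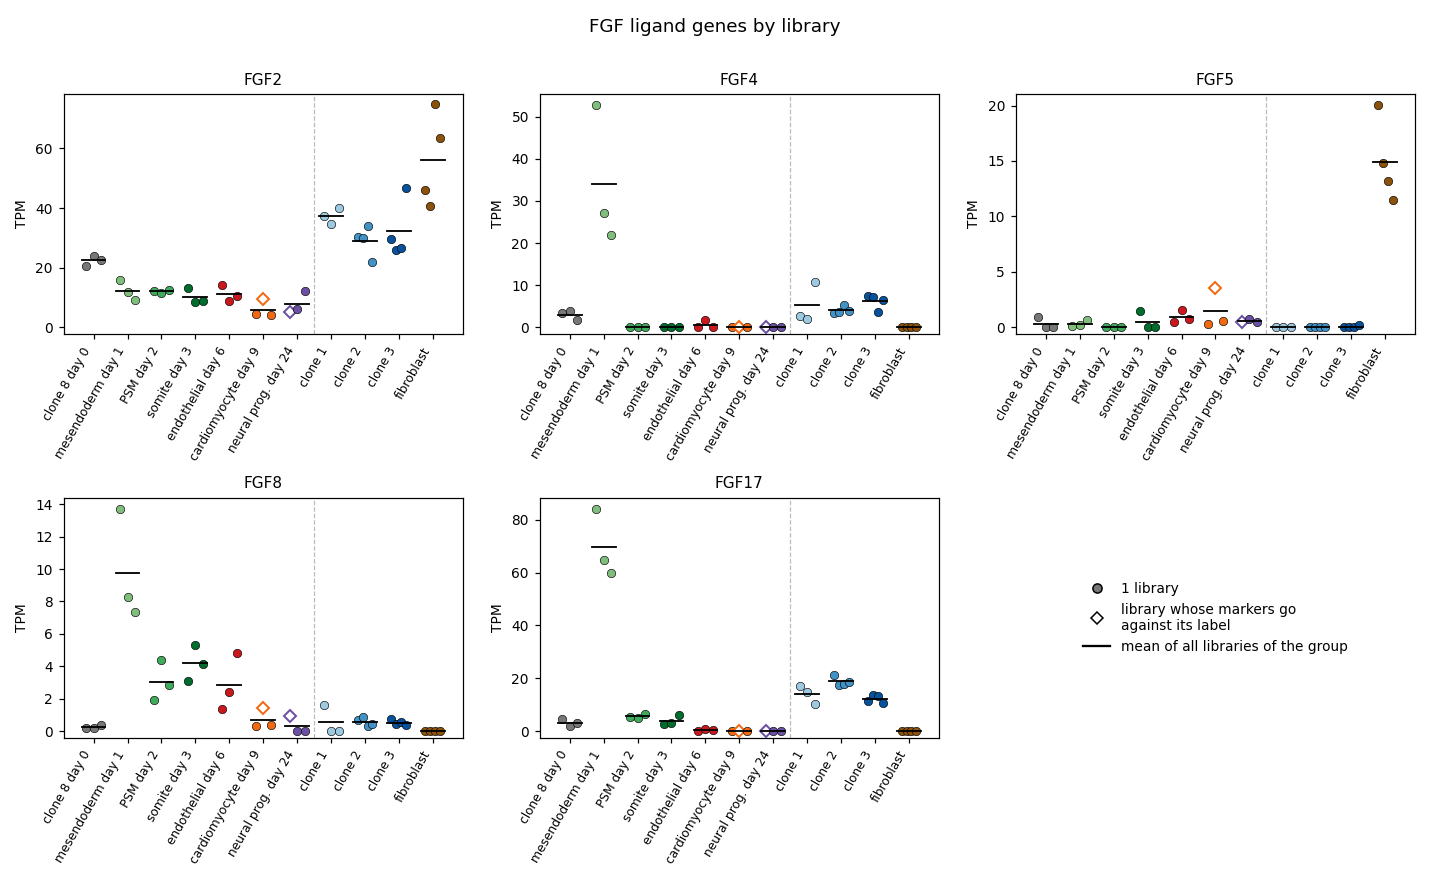
Levels of FGF2, FGF4, FGF5, FGF8 and FGF17 in all 36 libraries (TPM, linear axes with their own range per gene), by group. Each point is 1 library, each bar the group mean, and open diamonds mark cardiomyocyte replicate 2 and neural progenitor replicate 1. FGF4, FGF8 and FGF17 are highest at day 1 and FGF5 in fibroblasts.

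FGFR1, the main receptor of mesenchymal and pluripotent cells, had the highest mean of the receptors in every group except day 3, cardiomyocytes and neural progenitors as labelled. It stood at 60.7, 61.7 and 48.7 TPM in clone 1, 86.1, 89.2, 103 and 81.9 TPM in clone 2, 50.2, 57.3, 50.6 and 52.5 TPM in clone 3 and 67.1, 68.1, 59.7 and 73.1 TPM in fibroblasts. In clone 8 it was 90.8, 72.8 and 83.3 TPM at day 0, 106, 51.1 and 38.1 TPM at day 1, 103, 74.3 and 73.2 TPM at day 2 and 49.8, 45.3 and 35.9 TPM at day 3. Later libraries had 62.1, 59.5 and 61.2 TPM (endothelial), 20.03, 46.7 and 12.8 TPM (cardiomyocyte) and 19.8, 67.8 and 55.7 TPM (neural progenitor), and every neighbouring pair of groups overlapped when ordered by mean.

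FGFR2, whose splice forms divide epithelial from mesenchymal ligand binding, had the widest swing of the receptors between days 1 and 3. It was 39.4, 42.3 and 44.9 TPM at day 0, 22.3, 12.3 and 10.4 TPM at day 1, 5.46, 5.04 and 3.94 TPM at day 2 and 73.7, 73.6 and 70.8 TPM at day 3, with no overlap between consecutive days. Endothelial libraries had 25.7, 39.2 and 38.2 TPM, cardiomyocyte libraries 21.4, 23.7 and 11 TPM and neural progenitor libraries 15.7, 29.6 and 35.7 TPM. Day 3 was the highest group (72.7 ± 1.62 TPM, n = 3) and clone 2 the next (52.6 ± 4.81 TPM, n = 4), each apart from the groups below it. Clone 3 (37.3 ± 5.44 TPM, n = 4), clone 1 (28.9 ± 2.05 TPM, n = 3) and fibroblasts (40.1 ± 7.0 TPM, n = 4) lay among overlapping groups, and day 2 was the lowest. Gene-level values do not separate the splice forms.

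FGFR3, known in the nervous system for its level in neural progenitors and astrocytes, was split by the libraries that went against their labels. Neural progenitor libraries had 1.2, 235 and 203 TPM and cardiomyocyte libraries 0.94, 166 and 0.59 TPM, where the first neural progenitor and the second cardiomyocyte library are those 2. Elsewhere it was 21.2, 20.6 and 22.1 TPM at day 0, 22.4, 12.6 and 7.95 TPM at day 1, 13.3, 7.32 and 9.77 TPM at day 2, 33.4, 31.8 and 29.0 TPM at day 3 and 12.4, 6.11 and 7.60 TPM in endothelial libraries. Clone 1 averaged 14.1 ± 2.16 TPM (n = 3), clone 2 26.9 ± 3.79 TPM and clone 3 16.9 ± 1.25 TPM, and fibroblasts 5.88 ± 2.18 TPM (SD, n = 4 each).

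FGFR4, the receptor best known from liver bile acid control, was a transcript of the undifferentiated cells. It stood at 9.89, 8.13 and 10.2 TPM in clone 8 at day 0, 2.85, 4.44 and 3.92 TPM in clone 1, 4.67, 4.78, 5.72 and 4.44 TPM in clone 2 and 8.13, 6.28, 5.22 and 6.40 TPM in clone 3. All 22 libraries outside these groups had at most 1.90 TPM, and fibroblasts had 0, 0.11, 0 and 0.35 TPM. In the order of means the 4 undifferentiated groups stood first, with clone 1 last and apart from the differentiated groups.

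**Figure D2:**
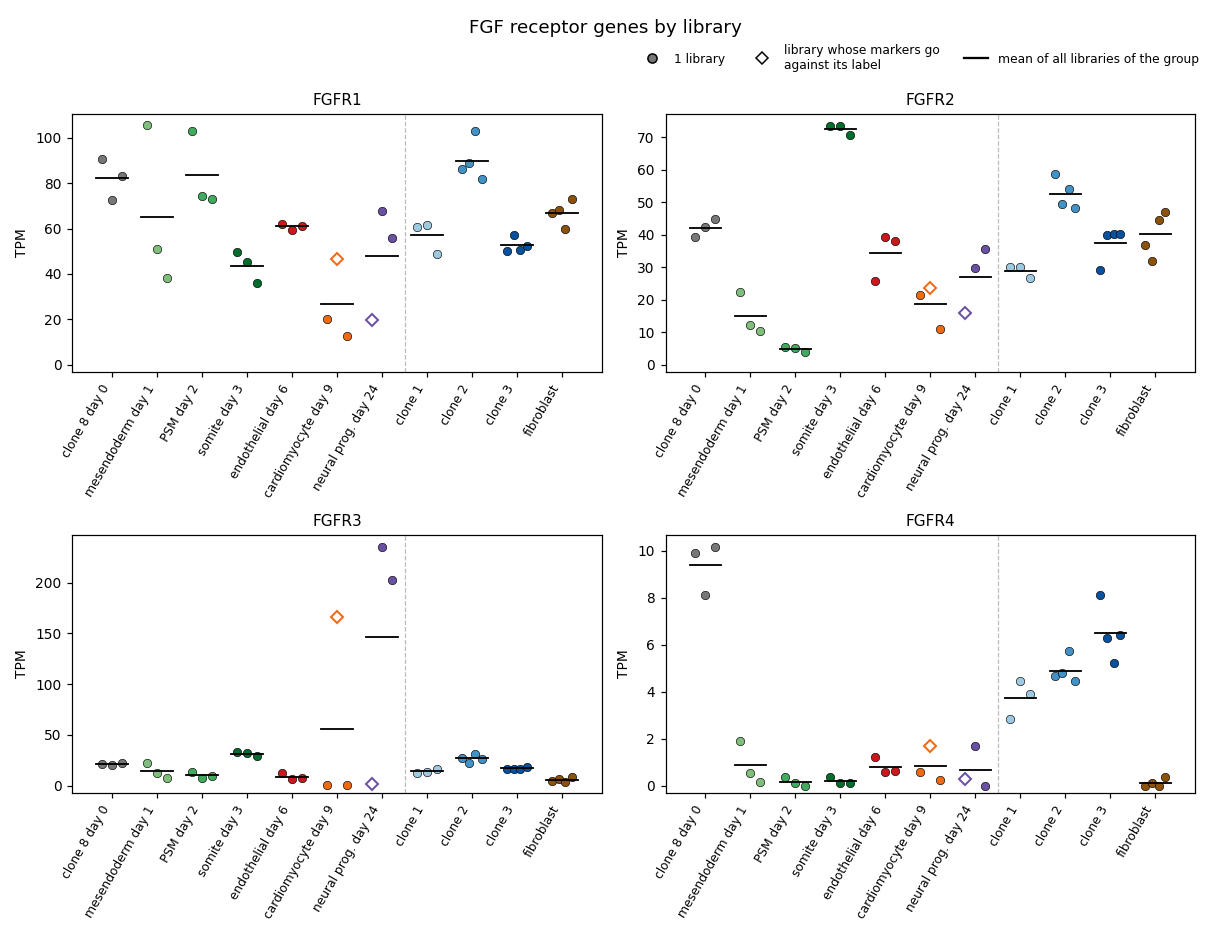
Levels of FGFR1, FGFR2, FGFR3 and FGFR4 in all 36 libraries (TPM, linear axes with their own range per gene), by group, drawn as for the ligands. FGFR2 is lowest at day 2 and highest at day 3, FGFR4 is above 2 TPM in undifferentiated libraries, and FGFR3 is at 166 TPM or more in 3 libraries, 1 of them labelled cardiomyocyte.

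The first comparison set the reprogrammed cells, clones 1 to 3 weighted equally, against fibroblasts. FGF17, FGF4, FGF8, FGFR4 and FGFR3 were higher in the clones and FGF5 and FGF2 lower, so that 7 of 9 members passed the test (edgeR, adjusted p under 0.05 over 14660 genes). That is read against a background in which 74.6% of all genes tested were called, 38.6% higher and 35.9% lower. The members' median log2 fold change was 1.52, against 0.11 over all genes, a shift that was 0.07 under the RLE scaling. FGF17 averaged 15.1 ± 3.59 TPM in the clones (SD, n = 11) and had 0 counts in fibroblasts (n = 4), which is at least 471-fold higher against a floor of 3 counts over the fibroblast libraries (edgeR adjusted p = 1.46e-11). FGF4 averaged 5.13 ± 2.58 TPM in the clones and was again at 0 in fibroblasts, at least 34.2-fold higher (edgeR adjusted p = 1.27e-05). These 2 ligands were above every fibroblast library in all 11 clone libraries.

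FGFR4 averaged 5.17 ± 1.42 TPM in the clones and 0.115 ± 0.165 TPM in fibroblasts, a log2 fold change of 5.79 ± 0.60 (SE; edgeR adjusted p = 1.02e-07). FGFR3 averaged 19.8 ± 6.22 TPM in the clones and 5.88 ± 2.18 TPM in fibroblasts, a log2 fold change of 1.52 ± 0.19 (edgeR adjusted p = 1.26e-06). Neither receptor's ranges overlapped. FGFR1 had 67.4 ± 19.1 TPM in the clones and 67.0 ± 5.55 TPM in fibroblasts, a log2 difference of -0.18 ± 0.11 (edgeR adjusted p = 0.145). FGFR2 had 40.6 ± 10.9 and 40.1 ± 7.0 TPM in the same order, a log2 difference of -0.16 ± 0.11 (edgeR adjusted p = 0.194). For FGFR1 the fibroblast libraries decided the call: the log2 difference was -0.25 without fibroblast replicate 3 (edgeR adjusted p = 0.0452), -0.26 with fibroblast replicates 1 and 2 alone (0.0425), and 0.031 with replicates 3 and 4 alone (0.847), which are the shallow pair of 7508792 and 6877298 counts.

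FGF5 averaged 0.0373 ± 0.0671 TPM in the clones and 14.9 ± 3.71 TPM in fibroblasts, a log2 fold change of -9.57 ± 0.58 (edgeR adjusted p = 4.62e-10), with no overlap. FGF2 averaged 32.5 ± 7.03 TPM in the clones and 56.2 ± 15.7 TPM in fibroblasts, a log2 fold change of -0.89 ± 0.13 (edgeR adjusted p = 1.21e-05). Here the ranges overlapped. FGF8 averaged 0.55 ± 0.444 TPM in the clones and was at 0 in fibroblasts, at least 6.41-fold higher (edgeR adjusted p = 0.0153). That call was lost without clone 1 replicate 2, the 1 clone 1 library with FGF8 counts (edgeR adjusted p = 1), and against fibroblast replicates 3 and 4 alone (0.136). The summed level of 6 pluripotency markers was 1981 to 2549 TPM in the clones and 0.59 to 4.41 TPM in fibroblasts, with TDGF1 at 0 in all fibroblast libraries. That of 7 fibroblast markers was 136 to 281 TPM in the clones and 19785 to 37492 TPM in fibroblasts. The members' differences cannot be told apart from this change of cell type.

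Around these members, other FGF pathway genes also differed between the clones and fibroblasts. The list counts here and in the next paragraph stand against 74.6% of all genes called, 38.6% higher and 35.9% lower. Of 6 other secreted ligands tested, 5 were lower in the clones and none higher, with a median log2 fold change of -5.30 against 0.11 over all genes. FGF7, a stromal ligand of the epithelial FGFR2 form, averaged 0.53 ± 0.745 TPM in the clones and 92.2 ± 13.6 TPM in fibroblasts (log2 fold change -7.92 ± 0.49). FGF9 averaged 0.527 ± 0.766 and 35.5 ± 10.5 TPM in the same order (log2 fold change -6.63 ± 0.70). Among the ERK feedback genes and ETS targets 11 of 13 were higher and 1 lower, with a median of 2.85. IL17RD, a membrane inhibitor of FGF signalling, averaged 23.0 ± 3.55 TPM in the clones and 0.228 ± 0.162 TPM in fibroblasts (log2 fold change 6.93 ± 0.30). The ERK phosphatase DUSP4 averaged 85.9 ± 12.2 and 1.12 ± 0.476 TPM in the same order (log2 fold change 6.08 ± 0.26).

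Other layers of the pathway split. The receptor adaptors and RAS-ERK core had 4 higher and 11 lower of 20, with MAPK3, which encodes ERK1, at 8.63 ± 4.16 TPM in the clones and 75.8 ± 40.9 TPM in fibroblasts (log2 fold change -3.48 ± 0.28). Of 6 co-receptors and FGF binding proteins 4 were higher and none lower, led by FLRT1 (log2 fold change 7.42 ± 0.72) at 0.626 ± 0.199 TPM in the clones. Of 10 heparan sulfate proteoglycans 2 were higher and 6 lower, and SDC2, a syndecan, averaged 4.93 ± 2.56 TPM in the clones and 1120 ± 548 TPM in fibroblasts (log2 fold change -8.17 ± 0.39). Among 13 genes of heparan sulfate synthesis and editing 3 were higher and 7 lower, with the sulfotransferase HS6ST2 at a log2 fold change of 8.62 ± 0.58 and the sulfatase SULF1 at -4.14 ± 0.08. Of 4 intracellular FGF homologous factors, which are not secreted and act on ion channels, 3 were higher and 1 lower, led by FGF14 (5.95 ± 1.02) and FGF12 (5.86 ± 0.45).

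Between the clones, the members called were receptors. FGFR2 averaged 28.9 ± 2.05 TPM in clone 1 (n = 3) and 52.6 ± 4.81 TPM in clone 2 (n = 4), a log2 fold change of -0.69 ± 0.15 (edgeR adjusted p = 0.0103), with no overlap, and this call held with any 1 library left out. FGFR1 (57.0 ± 7.25 TPM in clone 1 and 90.1 ± 9.13 TPM in clone 2, log2 fold change -0.48 ± 0.15, edgeR adjusted p = 0.0486) and FGFR3 (14.1 ± 2.16 and 26.9 ± 3.79 TPM in the same order, log2 fold change -0.76 ± 0.23, edgeR adjusted p = 0.0436) were called lower too. With these 3 of 9 members were called, all lower in clone 1, against 9.31% of all genes called and 4.84% called lower. The FGFR1 call was lost when any 1 of the 7 libraries was left out (edgeR adjusted p of 0.0697 to 0.139), and the FGFR3 call when any 1 but clone 1 replicate 4 was (0.0509 to 0.126).

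Clone 2 against clone 3 gave 1 called member, FGFR1, at 90.1 ± 9.13 TPM in clone 2 and 52.6 ± 3.29 TPM in clone 3 (SD, n = 4 each; log2 fold change 0.59 ± 0.13, edgeR adjusted p = 0.0165). In that comparison 4.22% of all genes were called and 2.06% higher. The FGFR1 ranges did not overlap, but the call was lost without clone 2 replicate 3 (edgeR adjusted p = 0.0708) or without clone 3 replicate 3 (0.0635). Clone 1 against clone 3 gave none of 9 members in edgeR, with 6.7% of all genes called, 2 members at an unadjusted p under 0.05, none in DESeq2 and 1 in limma. No ligand was called between clones, the largest log2 difference of an abundant one being that of FGF2, 37.4 ± 2.59 TPM in clone 1 and 29.1 ± 5.10 TPM in clone 2 (0.54 ± 0.18, edgeR adjusted p = 0.0706). FLRT3, an FGFR-binding membrane protein, averaged 3.83 ± 1.66 TPM in clone 1 and 14.7 ± 1.59 TPM in clone 2 (log2 fold change -1.80 ± 0.31, edgeR adjusted p = 0.00266). The adaptor FRS2 averaged 9.30 ± 3.81 and 21 ± 1.58 TPM in the same order (-1.01 ± 0.22, edgeR adjusted p = 0.0107). Both were on average lower in clone 1, while the feedback gene SPRY4 was higher there (0.72 ± 0.17, edgeR adjusted p = 0.0173).

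In clone 8, day 1 cells, labelled primitive streak or mesendoderm, had more of the 3 streak ligands and less of 2 receptors than day 0 cells. FGF17 averaged 69.7 ± 12.8 TPM at day 1 and 3.07 ± 1.24 TPM at day 0 (SD, n = 3 each), a log2 fold change of 4.72 ± 0.58 (edgeR adjusted p = 4.41e-05). FGF8 averaged 9.78 ± 3.46 TPM at day 1 and 0.267 ± 0.115 TPM at day 0, a log2 fold change of 5.24 ± 0.88 (edgeR adjusted p = 0.00083). FGF4 averaged 33.9 ± 16.5 TPM at day 1 and 2.98 ± 1.09 TPM at day 0, a log2 fold change of 3.66 ± 0.94 (edgeR adjusted p = 0.0347). All 3 were higher in 3 of 3 libraries with no overlap. The FGF4 call was lost when any 1 of the 6 libraries was left out (edgeR adjusted p of 0.0812 to 0.132) and in DESeq2 (adjusted p = 0.052).

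Of the receptors, FGFR2 averaged 15 ± 6.40 TPM at day 1 and 42.2 ± 2.79 TPM at day 0 (log2 fold change -1.31 ± 0.24, edgeR adjusted p = 0.00181). FGFR4 averaged 0.863 ± 0.919 and 9.39 ± 1.10 TPM in the same order (-3.30 ± 0.88, edgeR adjusted p = 0.0193). The FGFR4 call was lost without day 0 replicate 1 (0.0549), day 0 replicate 3 (0.0553), day 1 replicate 2 (0.0898) or day 1 replicate 3 (0.0872, all edgeR). FGFR1 (-0.17 ± 0.30) and FGFR3 (-0.39 ± 1.3) did not pass. With 3 higher and 2 lower, 5 of 8 members tested were called, against 12.7% of all genes, 5.53% higher and 7.16% lower. FGF5 was not tested in clone 8 because its counts were too low. Without the 2 libraries that went against their labels the same 5 were called and FGF2 was called lower as well (-0.68 in both fits, edgeR adjusted p = 0.0101 against 0.079), with 37.4% of all genes called. In that fit the edgeR adjusted p was 0.000156 for FGF4 and 8.65e-05 for FGFR4.

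The summed level of 6 primitive streak markers was 647 to 1136 TPM at day 1 and 17.8 to 27.3 TPM at day 0, where MIXL1 and EVX1 were at 0 in some libraries. The part of this change of cell state in the ligand values was not tested. FGF19, a ligand that in adults acts as a hormone, was higher too, at 62.6 ± 36.6 TPM at day 1 and 10.5 ± 4.59 TPM at day 0 (log2 fold change 2.74 ± 0.85, edgeR adjusted p = 0.0422). So were FGF10 and FLRT3 (27.3 ± 3.29 and 12.2 ± 1.56 TPM in the same order, 1.37 ± 0.18, edgeR adjusted p = 6.54e-05). FRS2, the adaptor, was lower at 9.16 ± 2.59 TPM at day 1 and 24.9 ± 2.47 TPM at day 0 (-1.21 ± 0.18, edgeR adjusted p = 0.000312). Among 14 ERK feedback genes and ETS targets none was higher and 3 were lower at day 1, with a median log2 fold change of -0.47 against -0.02 over all genes. They were led by SPRED3, at only 0.0833 TPM at day 1 and 1.11 TPM at day 0 (-3.38 ± 1.05). ETV1 followed, at 12.3 ± 2.81 TPM at day 1 and 50.7 ± 1.69 TPM at day 0 (-1.86 ± 0.43). Without the 2 contested libraries 1 was higher, IL17RD, and 6 were lower, against 17.9% of all genes called higher and 19.5% lower.

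On day 2, labelled presomitic mesoderm, FGF4, FGF17 and FGFR2 were lower than on day 1, and 4 of 14 feedback genes were higher. FGF4 had 0 counts in 3 of 3 libraries at day 2 and averaged 33.9 ± 16.5 TPM at day 1, at least 76.2-fold lower against a floor of 3 counts over the day 2 libraries (edgeR adjusted p = 0.00633). FGF17 averaged 5.59 ± 0.921 TPM at day 2 and 69.7 ± 12.8 TPM at day 1 (log2 fold change -3.60 ± 0.55, edgeR adjusted p = 0.000584). FGFR2 averaged 4.81 ± 0.785 and 15 ± 6.40 TPM in the same order (-1.60 ± 0.25, edgeR adjusted p = 0.000827). None of these ranges overlapped. The 3 of 8 members called, all lower, stand against 7.39% of all genes called and 3.45% called lower. FGF8 averaged 3.03 ± 1.25 TPM at day 2 and 9.78 ± 3.46 TPM at day 1 (-1.62 ± 0.72, edgeR adjusted p = 0.224). Without the 2 contested libraries it was called (edgeR adjusted p = 0.0167), as was FGFR4 (-2.54, 0.0447), with 23.9% of all genes called.

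Presomitic mesoderm markers, 6 genes, summed to 301 to 434 TPM at day 2 and 196 to 352 TPM at day 1. That sum was also 197 to 313 TPM in cardiomyocyte and 211 to 378 TPM in neural progenitor libraries. RSPO3, the highest of these markers by mean, averaged 121 TPM at day 2 and 201 TPM at day 1. MSGN1 (log2 fold change 2.93, edgeR adjusted p = 0.00954), TBX6 (3.11, 0.0194) and HES7 (4.43, 0.0125) were called higher at day 2. RSPO3, DLL1 and DLL3 were not called. Streak markers summed to 86.4 to 111 TPM at day 2. The part of both marker lists in the values was not tested. Among the feedback genes 4 of 14 were higher and none lower, against 3.94% of all genes called higher and 3.45% lower. Their median log2 fold change was 1.14 against 0 over all genes. Without the 2 contested libraries 7 were higher and 1, ETV1, was lower, against 12.3% of all genes called higher and 11.5% lower. The ERK phosphatase DUSP6 averaged 365 ± 24.9 TPM at day 2 and 45.1 ± 9.18 TPM at day 1 (3.04 ± 0.65, edgeR adjusted p = 0.00802). SPRY1, a Sprouty inhibitor, averaged 37.2 ± 11.3 and 4.94 ± 0.978 TPM in the same order (2.92 ± 0.57, edgeR adjusted p = 0.00445). FGF19 was lower, at 3.32 ± 2.49 TPM at day 2 and 62.6 ± 36.6 TPM at day 1 (-4.24 ± 0.93), as was FLRT3, at 4.77 ± 1.43 and 27.3 ± 3.29 TPM in the same order (-2.52 ± 0.18).

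From day 2 on to day 3 the receptors changed places. FGFR2 averaged 72.7 ± 1.62 TPM at day 3 and 4.81 ± 0.785 TPM at day 2, a log2 fold change of 3.69 ± 0.27 (edgeR adjusted p = 1.49e-07). FGFR1 averaged 43.7 ± 7.06 and 83.5 ± 16.9 TPM in the same order, a log2 fold change of -1.16 ± 0.31 (edgeR adjusted p = 0.0116). Neither pair of ranges overlapped. FGFR3 averaged 31.4 ± 2.21 TPM at day 3 and 10.1 ± 3.02 TPM at day 2, also without overlap, with a log2 difference of 1.41 ± 1.32 as labelled (edgeR adjusted p = 0.474) and 1.41 ± 0.24 without the 2 contested libraries (edgeR adjusted p = 3.10e-05), since a single spread per gene is fitted over all clone 8 groups. As labelled 2 of 8 members were called, against 23.7% of all genes, 12.5% higher and 11.2% lower, and without the 2 libraries 3 were, against 48.4%. The FGFR1 call was lost without day 3 replicate 3 (-1.05, edgeR adjusted p = 0.0527) and in limma on log2(TPM + 1) (-0.91, adjusted p = 0.157). FGFR1 had an edgeR adjusted p of 6.96e-05 without the 2 contested libraries. No ligand among the members was called.

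Of the 14 feedback genes 11 were lower and none higher at day 3, with a median log2 fold change of -4.75 against 0.05 over all genes (0.11 under the RLE scaling). Without the 2 contested libraries 12 were lower and 1, DUSP5, was higher, against 23% of all genes called lower and 25.4% higher. DUSP6 averaged 0.877 ± 0.317 TPM at day 3 and 365 ± 24.9 TPM at day 2 (-8.92 ± 0.89, edgeR adjusted p = 2.75e-06). The ETS factor ETV5 averaged 0.19 ± 0.101 and 48.4 ± 5.05 TPM in the same order (-8.15 ± 0.39, edgeR adjusted p = 1.21e-09). Across the 4 days DUSP6 thus stood at 195 ± 8.79, 45.1 ± 9.18, 365 ± 24.9 and 0.877 ± 0.317 TPM. Of 7 co-receptors and binding proteins 4 were higher and none lower, with FLRT3 at 316 ± 62.8 TPM at day 3 and 4.77 ± 1.43 TPM at day 2 (5.82 ± 0.21, edgeR adjusted p = 2.80e-11) and ANOS1, a secreted FGFR1 modulator, at 11.9 ± 1.22 and 1.05 ± 0.241 TPM in the same order (3.26 ± 1.11). Without the 2 contested libraries 5 of 8 were higher and none lower. FGF10, a ligand of the epithelial FGFR2 form, averaged 29.9 ± 9.93 TPM at day 3 and 2.94 ± 0.386 TPM at day 2 (3.10 ± 0.41, edgeR adjusted p = 4.85e-05). Cardiac markers, 8 genes, summed to 271 to 302 TPM at day 3 and 21.4 to 65.5 TPM at day 2. The 5 endoderm markers summed to 1149 to 1534 and 694 to 816 TPM in the same order, of which APOA1 made up nearly all. At day 0 that sum was 996 to 1272 TPM. APOA1 was not called between days 3 and 2 (0.68 ± 0.93, edgeR adjusted p = 0.639). SOX17 was lower, at 11.2 TPM at day 3 and 39.0 TPM at day 2 (-2.02 ± 0.46, edgeR adjusted p = 0.00436). FOXA2 averaged 3.16 and 3.13 TPM in the same order, and HNF4A 0.213 and 0.653 TPM. The part of these markers in the values was not tested.

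**Figure D3:**
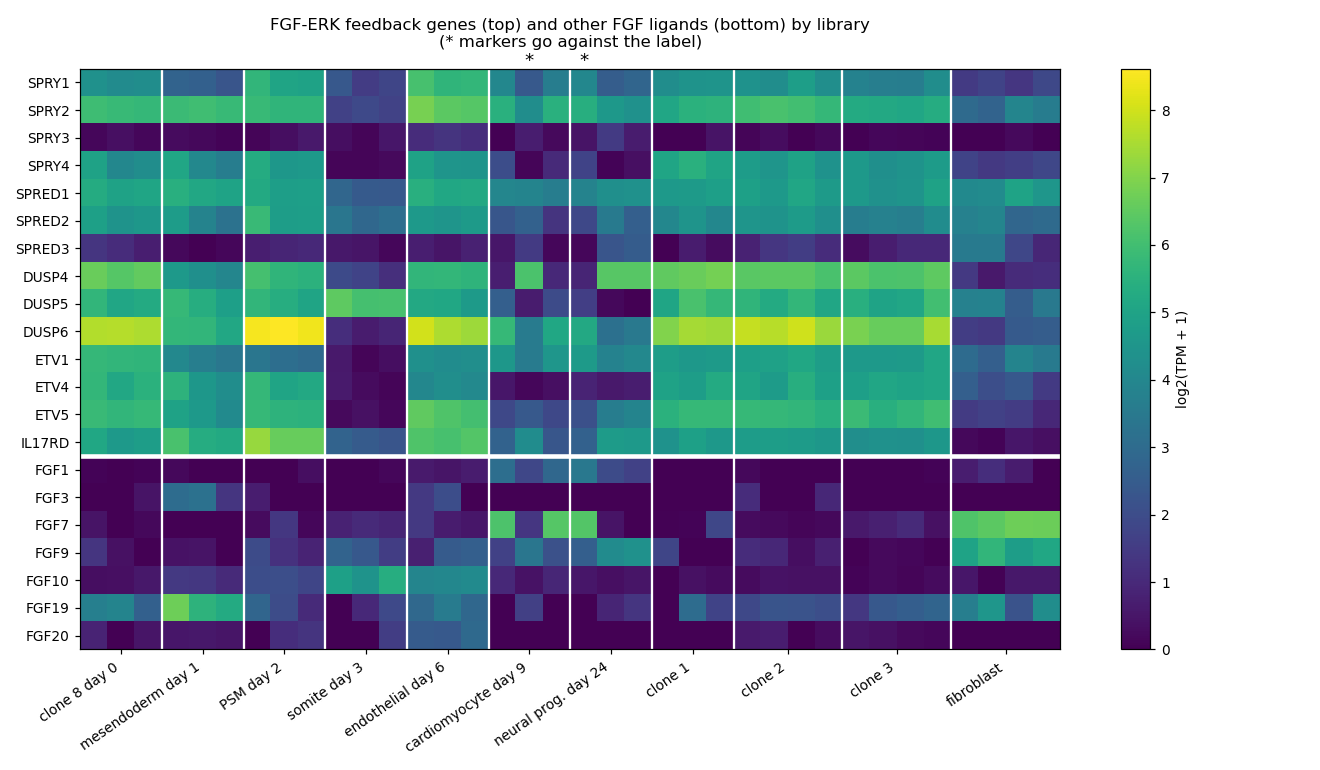
Levels of 14 ERK feedback genes and ETS targets (top) and 7 other secreted FGF ligands (bottom) as log2(TPM + 1), 1 column per library, with asterisks on the 2 contested libraries. DUSP6 averages 0.877 TPM at day 3, 365 TPM at day 2 and 3.22 TPM in fibroblasts, and FGF7 averages 92.2 TPM in fibroblasts.

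Against day 0, day 3 kept FGF8 above its start and FGF4, FGF2 and FGFR4 below it. This comparison and the next 3 share the day 0 libraries. FGF8 averaged 4.18 ± 1.13 TPM at day 3 and 0.267 ± 0.115 TPM at day 0 (log2 fold change 3.83 ± 0.87, edgeR adjusted p = 0.00393). FGF2 averaged 10.2 ± 2.66 and 22.4 ± 1.68 TPM in the same order (-1.15 ± 0.25, edgeR adjusted p = 0.00258). FGFR4 averaged 0.203 ± 0.136 TPM at day 3 and 9.39 ± 1.10 TPM at day 0 (-5.45 ± 1.03, edgeR adjusted p = 0.00101). FGF4, at 0 counts at day 3, was at least 5.43-fold lower (edgeR adjusted p = 0.032), a call lost when any 1 library but day 0 replicate 3 was left out (0.0703 to 0.0807). FGFR1 (-0.92 ± 0.31, edgeR adjusted p = 0.039) and FGFR2 (0.78 ± 0.24, edgeR adjusted p = 0.0259) were also called. Each call was lost when any 1 of the 6 libraries was left out (0.0543 to 0.135 for FGFR1 and 0.0516 to 0.0993 for FGFR2) and in limma. In all 6 of 8 members were called, 2 higher and 4 lower, against 23.5% of all genes, 12.2% higher and 11.3% lower. Without the 2 contested libraries FGFR3 was called too, at 31.4 ± 2.21 TPM at day 3 and 21.3 ± 0.785 TPM at day 0 (0.55 ± 0.22, edgeR adjusted p = 0.044), with 49.4% of all genes called. In that fit the edgeR adjusted p was 0.000743 for FGFR1, 0.00365 for FGFR2 and 0.00579 for FGF4. The fits with 1 library left out kept the 2 contested libraries.

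Endothelial cells at day 6 had less FGF2, FGF17 and FGFR4 than day 0 cells and more FGF8. FGF8 averaged 2.87 ± 1.78 TPM in endothelial cells and 0.267 ± 0.115 TPM at day 0 (log2 fold change 3.37 ± 0.86, edgeR adjusted p = 0.0103). FGF17 averaged 0.513 ± 0.483 and 3.07 ± 1.24 TPM in the same order (-2.30 ± 0.58, edgeR adjusted p = 0.00982). FGF2 averaged 11.2 ± 2.76 TPM in endothelial cells and 22.4 ± 1.68 TPM at day 0 (-0.98 ± 0.24, edgeR adjusted p = 0.0088). FGFR4 averaged 0.803 ± 0.37 and 9.39 ± 1.10 TPM in the same order (-3.57 ± 0.90, edgeR adjusted p = 0.00947). The ranges of these 4 genes did not overlap. As labelled their calls were narrow. The FGF8 call was lost without day 0 replicate 1 (0.0532), day 0 replicate 2 (0.0528) or endothelial replicate 3 (0.0557, all edgeR). That of FGF17 was lost without day 0 replicate 1 (0.0509), and FGF2 (0.0518) and FGFR4 (0.0517) without endothelial replicate 2, all by edgeR, and FGF2 in limma on log2(TPM + 0.1) (0.0539). With 1 higher and 3 lower, 4 of 8 members were called, against 19.3% of all genes, 11.6% higher and 7.76% lower. All these fits kept the 2 contested libraries. Without both, the edgeR adjusted p was 0.000362 for FGF8, 0.000427 for FGF17, 0.000343 for FGF2 and 2.65e-05 for FGFR4.

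FGFR1 averaged 60.9 ± 1.34 TPM in endothelial cells and 82.3 ± 9.04 TPM at day 0 (-0.40 ± 0.31, edgeR adjusted p = 0.405). FGFR2 averaged 34.4 ± 7.52 and 42.2 ± 2.79 TPM in the same order (-0.25 ± 0.24, edgeR adjusted p = 0.515). FGFR3 averaged 8.69 ± 3.26 TPM in endothelial cells and 21.3 ± 0.785 TPM at day 0 (-1.28 ± 1.32, edgeR adjusted p = 0.557), and was called lower without the 2 contested libraries (-1.32 ± 0.24, edgeR adjusted p = 9.11e-05), where 45.1% of all genes were called. FGF10 averaged 15.1 ± 1.31 TPM in endothelial cells and 0.33 ± 0.113 TPM at day 0 (5.53 ± 0.47, edgeR adjusted p = 6.24e-07). FLRT2, an FGFR-binding membrane protein, averaged 24.5 ± 3.45 and 2.19 ± 0.225 TPM in the same order (3.52 ± 0.29). The feedback genes had 3 higher and 2 lower of 14, against 11.6% of all genes called higher and 7.76% lower. Without the 2 contested libraries 5 were higher and 3 lower, against 24.3% of all genes called higher and 20.8% lower. SPRY1, among those higher, was at 56.2 ± 10.8 TPM in endothelial cells and 18.0 ± 1.47 TPM at day 0 (1.73 ± 0.54, edgeR adjusted p = 0.0336). Endothelial markers, 7 genes, summed to 590 to 666 TPM in endothelial cells and 5.42 to 9.74 TPM at day 0. Fibroblast markers, also 7, summed to 703 to 1110 and 148 to 316 TPM in the same order. Their part in these values was not tested.

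Cardiomyocyte and neural progenitor libraries were compared with day 0 first as labelled. In the cardiomyocyte group 6 of 8 members were called, all lower, against 41.7% of all genes and 18.8% lower, and in the neural progenitor group the same number, all lower, against 42.7% and 19%. The median log2 fold change of all genes was 0.20 in both comparisons (0.22 and 0.24 under the RLE scaling for cardiomyocytes and neural progenitors). Called lower in each were FGF2, FGF4, FGF17, FGFR1, FGFR2 and FGFR4. FGF17 gave log2 fold changes of -5.92 ± 0.89 in cardiomyocytes (edgeR adjusted p = 6.29e-05) and -5.94 ± 0.91 in neural progenitors (edgeR adjusted p = 7.27e-05). Each value rested on 1 FGF17 count in its group, in cardiomyocyte replicate 3 and in contested neural progenitor replicate 1. Without the 2 contested libraries FGF17 gave -5.45 ± 0.92 in cardiomyocytes (edgeR adjusted p = 2.60e-05). In neural progenitors it was then at 0 counts and called lower (edgeR adjusted p = 2.06e-05). FGF4, at 0 counts in all 6 libraries, was at least 5.47-fold lower in cardiomyocytes (edgeR adjusted p = 0.0195) and at least 5.62-fold lower in neural progenitors (edgeR adjusted p = 0.0199), the neural progenitor call being lost without replicate 2 (0.0546). Without the 2 contested libraries the neural progenitor call of FGF4 held (edgeR adjusted p = 0.0162). FGF2 gave -1.81 ± 0.25 in cardiomyocytes (edgeR adjusted p = 2.87e-05) and -1.72 ± 0.25 in neural progenitors (edgeR adjusted p = 4.83e-05).

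Without cardiomyocyte replicate 2 and neural progenitor replicate 1, the receptor values parted. FGFR3 averaged 219 ± 22.6 TPM in neural progenitors (n = 2) and 21.3 ± 0.785 TPM at day 0 (n = 3), a log2 fold change of 2.99 ± 0.25 (edgeR adjusted p = 4.23e-10). In cardiomyocytes it averaged 0.765 ± 0.247 TPM (n = 2), a log2 fold change of -4.44 ± 0.38 from day 0 (edgeR adjusted p = 9.64e-10). As labelled the same differences were 2.41 ± 1.35 in neural progenitors (edgeR adjusted p = 0.161) and 1.21 ± 1.3 in cardiomyocytes (edgeR adjusted p = 0.478), so for cardiomyocytes the sign turned with 1 library.

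FGFR1 was lower in both without the 2 libraries, at -0.78 ± 0.24 in neural progenitors (edgeR adjusted p = 0.00621, against -1.03 ± 0.31 and 0.0131 as labelled) and -1.94 ± 0.25 in cardiomyocytes (edgeR adjusted p = 6.05e-07, against -1.56 ± 0.31 and 0.000869). FGFR2 gave -0.77 ± 0.25 in neural progenitors (edgeR adjusted p = 0.00995, against -0.85 ± 0.24 and 0.00975 as labelled), and FGFR4 -3.35 ± 0.71. In cardiomyocytes FGFR2 was called in both fits (edgeR adjusted p = 0.00126, against 0.00328 as labelled), and FGFR4 gave -4.21 ± 0.76 (-3.48 ± 0.90 as labelled). The limma test on log2(TPM + 1) did not call FGFR1 (adjusted p = 0.102) or FGFR2 (0.089) in neural progenitors as labelled. Called members were 7 of 8 in cardiomyocytes, all lower, against 61.7% of all genes, and 7 of 8 in neural progenitors, FGFR3 higher and 6 lower, against 63.8%. FGF8, at 0 counts in both remaining neural progenitor libraries, was not called in either group. Of those 2 libraries one has 7120672 counts and the other 1845333, the lowest total of the series.

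The direct comparison of neural progenitors with cardiomyocytes was added after the data had been seen. As labelled edgeR called 0% of all genes and none of 8 members, with 753 genes and no member at an unadjusted p under 0.05, and none in DESeq2 or limma. Without the 2 libraries 63.7% of all genes were called, and of the members FGFR3 was higher in neural progenitors, at 219 ± 22.6 TPM against 0.765 ± 0.247 TPM in cardiomyocytes (log2 fold change 7.43 ± 0.40, edgeR adjusted p = 3.75e-13). FGFR1 was higher as well, with 67.8 and 55.7 TPM in neural progenitors and 20.03 and 12.8 TPM in cardiomyocytes (1.15 ± 0.27, edgeR adjusted p = 0.000668).

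Other ligands took part in these late groups. FGF7 averaged 77.1 ± 5.51 TPM in cardiomyocytes without replicate 2 and 0.167 ± 0.188 TPM at day 0 (log2 fold change 9.12 ± 0.59, against 8.55 ± 2.23 as labelled), and FGF1, a ligand that binds every FGF receptor, 7.03 ± 0.877 TPM and 0.0467 ± 0.0404 TPM in the same order (7.43, against 7.01 ± 1.26). The 7 fibroblast markers summed to 2557 and 1603 TPM in cardiomyocyte replicates 1 and 3, to 22.5 TPM in replicate 2 and to 148 to 316 TPM at day 0. They summed to 2623 TPM in neural progenitor replicate 1, and to 41.96 and 38.6 TPM in replicates 2 and 3. Their part in the FGF7 values was not tested. In neural progenitors FGF7 was called higher as labelled (7.56 ± 2.18, edgeR adjusted p = 0.0119) but averaged 0.18 ± 0.255 TPM without replicate 1 (log2 difference 0.34, edgeR adjusted p = 0.857). FGF9, a ligand of FGFR3 among others, averaged 18.2 ± 1.78 TPM in neural progenitors without replicate 1 and 0.61 ± 0.803 TPM at day 0 (log2 fold change 4.39). Of the 14 feedback genes 9 were lower and none higher in cardiomyocytes as labelled, against 18.8% of all genes called lower. In neural progenitors as labelled 9 were lower and 1 higher, SPRY3 (2.23 ± 0.86, edgeR adjusted p = 0.0448), against 19% called lower. Without the 2 libraries 11 were lower and none higher in cardiomyocytes, against 31.4% of all genes called lower. In neural progenitors 12 were then lower and 2 higher, SPRY3 and SPRED3, against 31.8% called lower. ETV4, an ETS factor, averaged 0.27 ± 0.17 TPM in cardiomyocytes as labelled and 43.5 ± 8.43 TPM at day 0 (-6.13 ± 0.52, edgeR adjusted p = 1.68e-07), and 0.66 ± 0.157 TPM in neural progenitors as labelled (-5.98 ± 0.52, edgeR adjusted p = 2.34e-07).

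**Figure D4:**
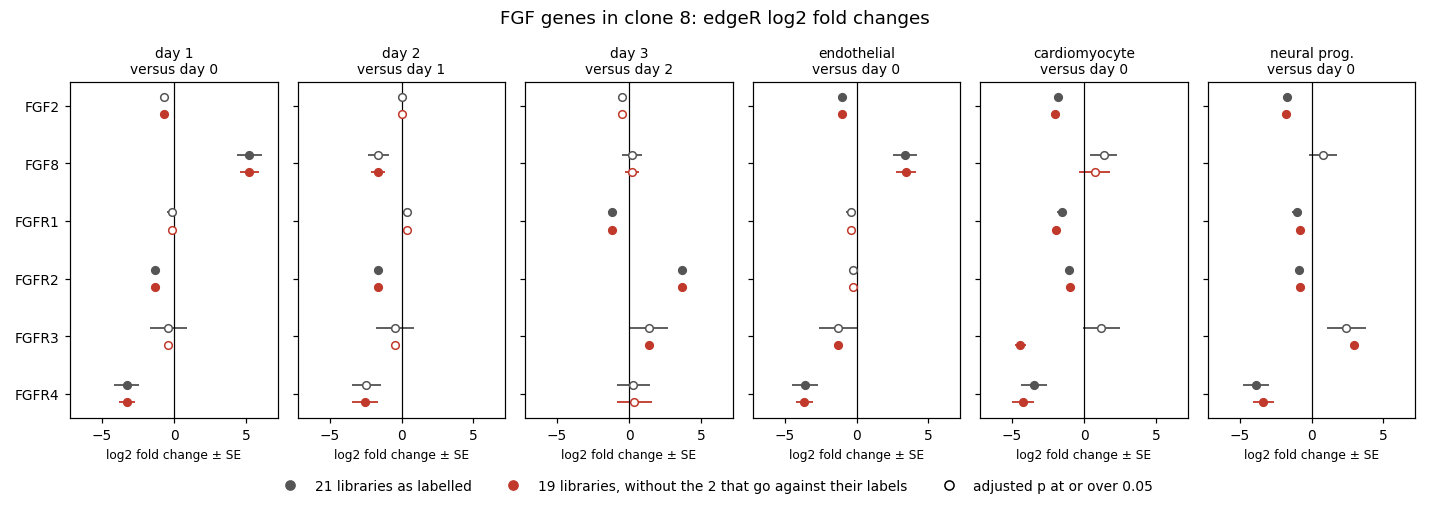
Log2 fold changes (± SE) of FGF2, FGF8 and FGFR1 to FGFR4 in 6 clone 8 comparisons, as labelled and without cardiomyocyte replicate 2 and neural progenitor replicate 1. FGF8 in neural progenitors without replicate 1 is left out, being at 0 counts. Open circles did not pass the edgeR test (adjusted p under 0.05). The SE of FGFR3 is about 1.3 as labelled and its cardiomyocyte value changes sign without the 2 libraries.

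The make-up of the receptors, as each one's share of the summed FGFR1 to FGFR4 TPM, was set out per library because TPM is per length. FGFR1 held 54.8 ± 3.42, 51.6 ± 2.38 and 46.5 ± 1.95% of the sum in clones 1, 2 and 3 and 59.4 ± 4.03% in fibroblasts (SD). FGFR3 held 13.7 ± 3.07, 15.4 ± 1.40 and 14.9 ± 1.13% in the clones and 5.13 ± 1.57% in fibroblasts, and FGFR4 3.61, 2.81 and 5.79% in the clones and 0.0935% in fibroblasts. In clone 8, FGFR1 made up 52.9 ± 2.99% at day 0, 67.9 ± 1.40% at day 1, 84.7 ± 0.779% at day 2 and 29.4 ± 2.68% at day 3. FGFR2 made up 27.3 ± 2.58, 16.3 ± 1.86, 4.94 ± 0.757 and 49.3 ± 2.66% on the same days, so that FGFR2 was the leading receptor transcript at day 3. The sum itself was 155 ± 9.87 TPM at day 0, 95.2 ± 50.6 TPM at day 1, 98.6 ± 20.4 TPM at day 2 and 148 ± 10.9 TPM at day 3.

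Later groups differed in make-up as well. Endothelial cells had 58.2 ± 2.66% FGFR1, 32.7 ± 6.41% FGFR2 and 8.35 ± 3.38% FGFR3 of a sum of 105 ± 3.14 TPM. Neural progenitors without replicate 1 had 69.7 ± 0.99% FGFR3 and 19.6 ± 0.968% FGFR1 of a sum of 314 ± 28.1 TPM (n = 2), and as labelled 47.5 and 30.9%. Cardiomyocytes without replicate 2 had 49.3 ± 3.73% FGFR1, 47.3 ± 3.62% FGFR2 and 2.29 ± 0.15% FGFR3 of a sum of 33.8 ± 12.99 TPM (n = 2), and as labelled 39.4, 34.9 and 24.8%. Receptor shares were not tested. They add up to a fixed whole, so a higher share of one is a lower share of the others.

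**Figure D5:**
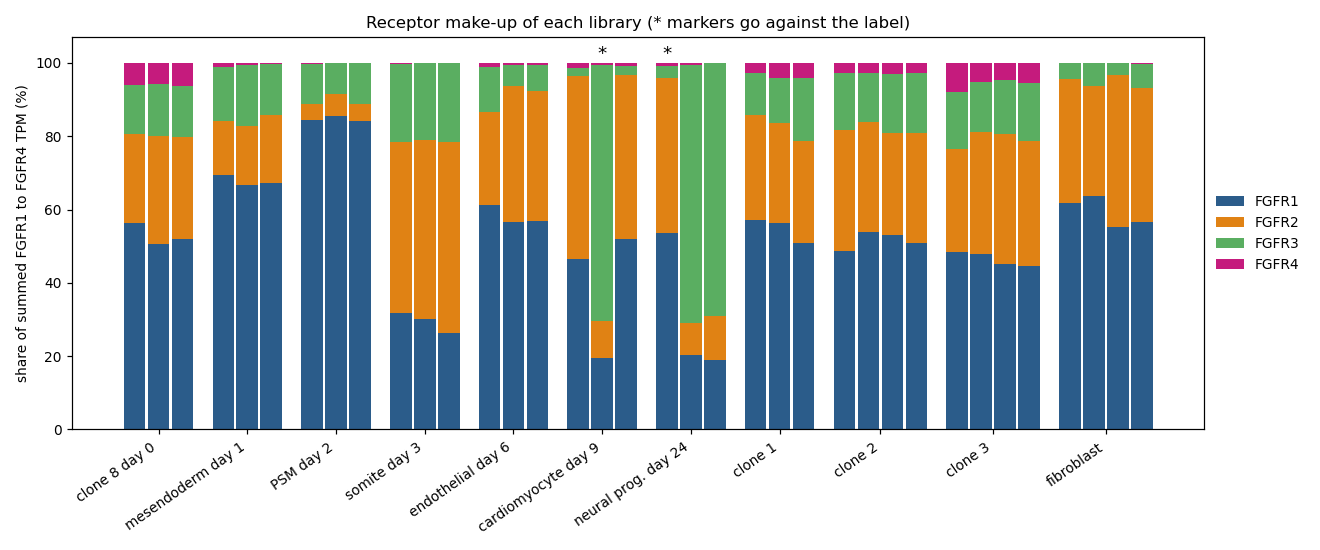
Share of the summed FGFR1 to FGFR4 TPM held by each receptor (percent), 1 bar per library, with asterisks on the 2 libraries that went against their labels. FGFR1 averages 84.7% at day 2, FGFR2 averages 49.3% at day 3, and FGFR3 averages 69.7% in neural progenitors without replicate 1.

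Genes most like each member were ranked by the Pearson correlation of log2(mean TPM + 1) over the 11 group means, among 10627 genes with at least 10 TPM in a group mean. These are descriptions over 11 points that share the clone 8 line, and without a test. Closest to FGF4 were GSC (0.959), NODAL (0.931) and TDGF1 (0.931), the first of which encodes a homeobox factor of the organizer and the others a ligand and its co-receptor of the streak. FGF8 had BMP4 (0.959), PLAT (0.929) and PHACTR2 (0.911) next to it, and FGF17 had TAF1A (0.921), T (0.905), which encodes the streak factor brachyury, and GSC (0.905). Nearest to FGF2 was ITGA11 (0.961), and nearest to FGF5 PALMD (0.99), each with a high value in fibroblasts. Among the receptors the top genes were TPCN1 for FGFR1 (0.915), GABRP for FGFR2 (0.899), PTPRN for FGFR3 (0.961) and TNFSF11 for FGFR4 (0.979), whose list also holds the germline and pluripotency factor PRDM14. The order changed for some over the 34 libraries left without the 2 contested ones. There ITGA11 ranked 5 for FGF2 (0.898), PALMD 4 for FGF5 (0.96), TAF1A 13 for FGF17 (0.847), TPCN1 2 for FGFR1 (0.837), GABRP 10 for FGFR2 (0.789), PTPRN 13 for FGFR3 (0.878) and TNFSF11 2 for FGFR4 (0.949). GSC stayed first for FGF4 (0.934) and BMP4 for FGF8 (0.923).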

How the data were processed

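Gene-level values were used for 36 pig RNA-seq libraries prepared by ligation-mediated sequencing from total RNA, per the labels' protocols. The authors deposited expected counts (RSEM estimated counts) and TPM values per gene. The submitters' processing notes name bcl2fastq, Bowtie 1.2.3, RSEM 1.2.3 and Sscrofa11.1, and whether counting used strand is not given in the sources used here. Estimated counts were rounded, which moved 0.00661% of all counts, and tested with edgeR 4.0.16 (quasi-likelihood F test, TMM scaling, filterByExpr with a minimum count of 10, Benjamini-Hochberg adjustment over all genes tested, called at an adjusted p under 0.05) in R 4.3.3. A fit over 15 libraries held clones 1 to 3 and fibroblasts (14660 genes tested) and another over 21 held clone 8 (14248 genes), each with 1 coefficient per group. The SE of a log2 fold change is its size over the square root of the test's F value. Levels were set side by side across the fits as TPM only. Sequencing depth was 1845333 to 69879325 estimated counts per library. None of 42 replicate pairs held identical values.

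The members and gene lists were chosen with earlier results of these data known. All 9 members are named throughout. From each other pathway list, named genes come from the 2 called genes with the largest fold change in a comparison, with some exceptions. DUSP6 over 4 days and the late values of FGF9 were named after their values were seen. Feedback genes called against the direction of most others in their list (IL17RD, ETV1, DUSP5, SPRY3 and SPRED3) were named for that direction. Alternatives tried were RLE scaling, no count filter, DESeq2 1.42.0, limma 3.58.1 on log2(TPM + 1) and log2(TPM + 0.1), fits of the compared groups only, a replicate block, each library left out in turn, fibroblast pairs, and both contested libraries left out. The edgeR test was also run on counts simulated with the spread of these data. The simulation built in no contested libraries and no fibroblast pairs, so it does not bear on calls that depend on them. Gene positions come from RefSeq, in which 20618 of 20683 symbols matched.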

Additional observations from a re-analysis of the deposited data

Results flagged for a closer look

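In groups of 4 libraries, the lowest and highest library of each member was set against its neighbours, 24 groups in all, and chance flags about 1 in 20 of them. FGFR2 in clone 3 replicate 1 stood at 29.16 TPM, apart from the next library at 39.93 TPM. FGFR3 in clone 3 replicate 4 stood at 18.78 TPM, apart from the next at 16.46 TPM. Neither gene was called between clone 3 and another clone.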

How the results depend on the processing

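Alternatives were tallied for 55 member results, not for every member tested. These were results called as labelled or without the 2 contested libraries, and every member in clones versus fibroblasts. Members called in neither fit of the other comparisons are not among them. All 55 kept their direction and their side of the threshold under the RLE scaling, 54 without a count filter, and 53 in DESeq2. Pairing by replicate number had no ground in the labels. Deviations of libraries with the same number had correlations of -0.124 to 0.0759 between clones. Between consecutive days from day 0 to day 3 they were 0.00983 to 0.362. Between neural progenitors and cardiomyocytes, which hold the contested libraries, they were -0.737 to 0.871. With the replicate block 53 were kept. The members called in clone 1 versus clone 2 were then 1, with FGFR1 (adjusted p = 0.0716) and FGFR3 (0.0653) lost. Leaving out 1 library at a time kept 361 values, 51 fell short of the threshold, 3 came past it and 1 turned its sign.

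Values that turned their sign were FGFR1 in clones versus fibroblasts, 0.031 with fibroblast replicates 3 and 4 alone, and FGFR3 in cardiomyocytes versus day 0, -1.47 in limma with a pseudocount of 1, -2.12 with 0.1, and -4.44 without both contested libraries. With 1 library left out the last ran from -4.44, without cardiomyocyte replicate 2, to 1.72, without cardiomyocyte replicate 3.

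Counts of all genes called moved by over 1.5 times as follows. DESeq2 gave 2247 for clone 1 versus clone 2 (1365 in edgeR), 1877 for clone 1 versus clone 3 (982), 1226 for clone 2 versus clone 3 (618) and 1695 for day 2 versus day 1 (1053). With limma on log2(TPM + 1), clone 2 versus clone 3 gave 1052. Fits of the compared groups only gave 2561 for clone 2 versus clone 3, 4752 for day 1 versus day 0 (1808), 2165 for day 2 versus day 1, 6421 for day 3 versus day 2 (3374), 7706 for day 3 versus day 0 (3346), 7704 for endothelial (2752), 3764 for cardiomyocyte (5940) and 3476 for neural progenitor versus day 0 (6087). Without both contested libraries the counts were 5415 for day 1 versus day 0, 3460 for day 2 versus day 1, 7011 for day 3 versus day 2, 7160 for day 3 versus day 0, 6532 for endothelial, 8934 for cardiomyocyte and 9236 for neural progenitor versus day 0, and 9226 for neural progenitor versus cardiomyocyte (0 as labelled). The cause of these moves was not tested, except that one spread per gene is fitted over all groups of a fit.

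Members called moved in the same way. In limma on log2(TPM + 1) they were 1 in clone 1 versus clone 3, 2 in clone 2 versus clone 3 and 1 in day 3 versus day 2, which was also 1 with a pseudocount of 0.1. In fits of the compared groups they were 4 in clone 2 versus clone 3 and 4 in day 3 versus day 2. Without both contested libraries they were 5 in day 2 versus day 1 and 2 in neural progenitor versus cardiomyocyte.

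With 1 library left out, all genes called and members called were 10371 to 11196 and 6 to 8 in clones versus fibroblasts, 643 to 1757 and 1 to 2 in clone 1 versus clone 2, 435 to 1332 and 0 in clone 1 versus clone 3, and 330 to 549 and 0 to 1 in clone 2 versus clone 3. In clone 8 they were 996 to 1595 and 3 to 4 (day 1 versus day 0), 526 to 693 and 3 (day 2 versus day 1), 2212 to 2727 and 1 to 2 (day 3 versus day 2), 2309 to 2526 and 3 to 4 (day 3 versus day 0), 1789 to 1970 and 2 to 4 (endothelial), 4477 to 6885 and 6 to 7 (cardiomyocyte), 4663 to 7519 and 5 to 7 (neural progenitor) and 0 to 3883 and 0 to 1 (neural progenitor versus cardiomyocyte).

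Depth limits the low members, since FGF8 rests on 4 counts over the day 0 libraries, FGFR4 on 7 over the fibroblasts and FGF5 on few counts in every clone 8 library. The neural progenitor values without replicate 1 rest on 2 libraries.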
